A study of Daphnia magna with 24 samples.

Results

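Enzymes that handle oxidants and foreign compounds were followed across silver exposures of Daphnia magna, a freshwater crustacean widely used in aquatic toxicology. They are thioredoxin reductase 1 (feature DM00670P2), a glutathione transferase (DM01138P4) and a cytochrome P450 (DM02419P1), 3 of the 14338 features on a single-colour Agilent array. Thioredoxin reductase signal was higher after dissolved silver and after both silica-coated nanowires than in any unexposed array. Cytochrome P450 signal was highest after dissolved silver. Glutathione transferase signal was weak, and its lowest levels were those of the long silica-coated nanowires.

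The features were taken by their identifiers from the authors' deposited table, which names 1024 of its 1826 features and lists each feature under the exposures in which the authors report a log2 ratio over the medium control. Thioredoxin reductase is listed there for S-SiO2-NW at 1.1, glutathione transferase for L-SiO2-NW at −0.6 and cytochrome P450 for Ag+ at 1.9. The choice therefore rests on differences from Control in these same arrays, and all differences from Control are given below as a description without a test. No other feature of the array carries the identifier number of any of the 3.

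Whole animals were exposed for 24 h at 1/10 of the LC50 of each material, about 20 animals per exposure, and 4 arrays were hybridised for each of 6 groups (24 arrays). Control animals were kept in medium without silver. Ag+ animals received dissolved silver. The other 4 groups received silver nanowires that were long (L) or short (S) and carried a coat of either silica (SiO2) or polyvinylpyrrolidone (PVP), and are written S-SiO2-NW, S-PVP-NW, L-SiO2-NW and L-PVP-NW. Because each material was dosed relative to its own LC50, silver mass may differ between groups. The sources used here give neither the strain and age of the animals nor whether replicates came from separate cultures, so the error terms measure the spread between these arrays, which may be technical.

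Thioredoxin reductase is a flavoenzyme that uses NADPH to keep the small protein thioredoxin reduced. Reduced thioredoxin in turn supplies electrons to peroxiredoxins, to ribonucleotide reductase and to oxidised protein thiols. In the fly Drosophila melanogaster, which lacks a glutathione reductase, the thioredoxin system also recycles oxidised glutathione. Glutathione transferases join the tripeptide glutathione to electrophiles, which makes them more soluble, and some also reduce organic peroxides. Cytochromes P450 are haem monooxygenases that insert an oxygen atom into lipids, hormones and foreign compounds, often as the step before conjugation. Silver ions bind strongly to thiols and selenols, the groups on which thioredoxin reductase and glutathione depend.

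The oligonucleotides that report the 3 transcripts are shown because each value below is the signal of 1 of them. They are given as the authors' table prints them, from 5′ to 3′ and with no part set in capitals. The other glutathione S-transferase-like feature of the table, DM05883P1, is shown beside them.
DM00670P2, thioredoxin reductase 1: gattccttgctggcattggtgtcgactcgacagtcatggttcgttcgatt
DM01138P4, glutathione transferase: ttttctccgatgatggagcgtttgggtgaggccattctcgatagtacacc
DM02419P1, cytochrome P450: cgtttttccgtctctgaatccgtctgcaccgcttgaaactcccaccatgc
DM05883P1, glutathione S-transferase-like: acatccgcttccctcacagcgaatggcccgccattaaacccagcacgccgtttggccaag
The first 3 are 50 bases long with a GC content of 50%, 50% and 54%, where the median over the 1826 oligonucleotides of the table is 50%. The longest run shared by the glutathione transferase probes DM01138P4 and DM05883P1 is 7 bases, so these probes report different sequences. Whether the printed strand is the probe or its target is not stated in the table.

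Names rest on protein matches given in the authors' deposited table. The thioredoxin reductase query matched a cytoplasmic thioredoxin reductase 1 at 33 of 46 aligned residues (71%, E = 1e-07). The glutathione transferase query, itself labelled as a glutathione S-transferase variant, matched a predicted glutathione S-transferase-like protein at 27 of 57 residues (47%, E = 4e-05). The cytochrome P450 query matched a protein of the wasp Nasonia vitripennis described as similar to cytochrome P450 CYP4AB2 at 17 of 23 residues (73%, E = 4e-11). The same queries matched Daphnia pulex assemblies at 107 of 125, 381 of 461 and 37 of 40 bases. The P450 alignments were the shortest, which leaves the family name uncertain, although the protein match had the lowest E. The glutathione transferase match had the highest E and the lowest identity. No isoform is assigned here.

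Most features gave little signal, with array medians of 60 to 72. Signal under 2 times an array's lower quartile is termed dim here, a limit that lay between 100 and 116. Thioredoxin reductase and cytochrome P450 were above it on all 24 arrays, whereas glutathione transferase was dim on 16. The 1st percentile of intensity, here the array floor, was 46 to 50 in Control and 48 to 50 in L-PVP-NW, but 41 to 43 in both S-PVP-NW and L-SiO2-NW, 42 to 45.4 in S-SiO2-NW and 45 to 46 in Ag+. Scan or slide and exposure cannot be told apart for the silica groups and S-PVP-NW, whose floors were all below those of Control. The same holds for L-PVP-NW against Ag+, as every Ag+ floor was below every L-PVP-NW floor. The Ag+ floors were also at or below the lowest Control floor. In whole-animal RNA, fewer cells of a type and less transcript per cell cannot be told apart either.

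Thioredoxin reductase had intensities of 306, 563, 269 and 602 on Control arrays 1 to 4. The Ag+ arrays gave 910, 872, 1814 and 1688. All Ag+ arrays were above all Control arrays, and the group means were 1321 ± 499 and 435 ± 172 (SD, n = 4). S-SiO2-NW gave 1493, 1195, 1041 and 2351, and L-SiO2-NW gave 1428, 702, 699 and 1776. Neither silica group overlapped Control. S-PVP-NW gave 624, 1514, 1104 and 531, and array 4 of that group lay below Control 2 and Control 4. L-PVP-NW gave 309, 368, 858 and 359 on replicates A to D, and apart from replicate C these lay within the Control range.

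**Figure D1:**
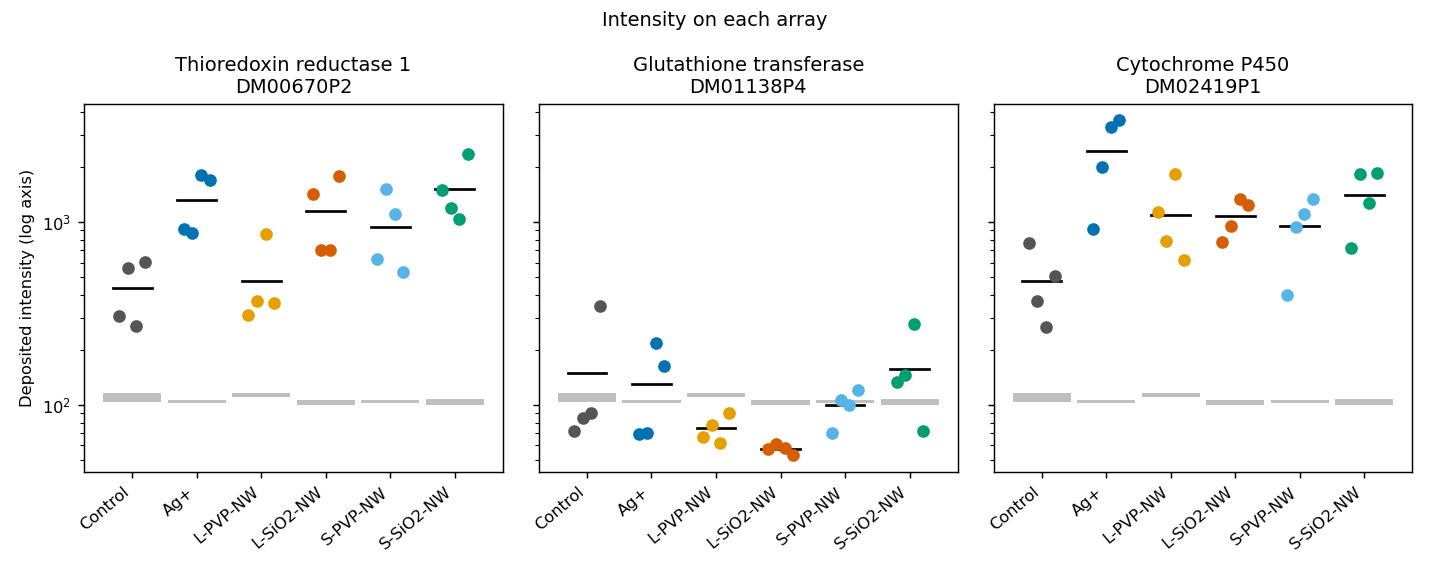
Deposited intensity on a log axis for each of the 24 arrays, by group. Points are arrays, black lines are group means (n = 4) and grey bands are the range of the dim limit in each group. Thioredoxin reductase in Ag+, L-SiO2-NW and S-SiO2-NW lies above every Control array, glutathione transferase is at or under the limit on most arrays, and the brightest cytochrome P450 arrays are 3 of the 4 in Ag+.

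On the normalised log2 scale, in which arrays share 1 distribution, thioredoxin reductase was higher than in Control by 1.13 ± 0.27 in S-SiO2-NW (SE from the limma fit over all arrays, n = 4 per group), by 1.05 in Ag+ and by 0.87 in L-SiO2-NW, with the same SE. The value for S-PVP-NW was 0.61 and that for L-PVP-NW was 0.04. In folds these are 2.18 in S-SiO2-NW, 2.08 in Ag+, 1.83 in L-SiO2-NW, 1.03 in L-PVP-NW and 1.53 in S-PVP-NW. With median centring in place of quantile normalization the Ag+ value was 1.63 and the S-SiO2-NW value was 1.72.

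The study set every exposed array against every Control array, 16 pairs per exposure. Thioredoxin reductase was higher in 16 of 16 normalised pairs in Ag+, L-SiO2-NW and S-SiO2-NW, in 14 in S-PVP-NW and in 9 in L-PVP-NW. The feature ranked at the 87.4th to 91.0th percentile of all features on the Control arrays, at the 92.3rd to 94.5th on the Ag+ arrays and at the 91.9th to 95.1st on the S-SiO2-NW arrays. The percentile does not depend on the scaling of the arrays. L-PVP-NW spanned the 88.2nd to 90.6th percentile, inside the Control range.

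Cytochrome P450 had Control intensities of 766, 369, 267 and 506. In Ag+ it had 915, 2005, 3295 and 3594, and the group means were 2452 ± 1235 and 477 ± 216 (SD, n = 4). Each Ag+ array was brighter than each Control array, but array 1 was closest. After normalization Ag+ 1 (9.85) fell under Control 1 (10.14), so the groups overlapped on that scale in 1 of 16 pairs.

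Among the nanowires, L-PVP-NW gave 1140, 784, 1822 and 619 for cytochrome P450. L-SiO2-NW gave 776, 948, 1331 and 1232, and S-SiO2-NW gave 718, 1819, 1262 and 1854. S-PVP-NW gave 400, 944, 1104 and 1341. Each of the 4 nanowire groups had a mean of 947 or more, but all of them except L-SiO2-NW had at least 1 array below Control 1.

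Normalised cytochrome P450 was above Control by 1.81 ± 0.41 in Ag+ (SE, n = 4 per group), by 1.07 in L-PVP-NW, by 0.87 in S-SiO2-NW, by 0.72 in L-SiO2-NW and by 0.51 in S-PVP-NW, each with the same SE. The folds are 3.51 in Ag+, 2.1 in L-PVP-NW, 1.83 in S-SiO2-NW, 1.65 in L-SiO2-NW and 1.43 in S-PVP-NW. Control 1 stood at 10.14 and the other Control arrays at 8.79 to 8.91. Without Control 1 the values were 2.13 in Ag+, 1.39 in L-PVP-NW, 1.19 in S-SiO2-NW, 1.04 in L-SiO2-NW and 0.83 in S-PVP-NW. The S-PVP-NW difference rested further on 1 array of its own, with 0.20 without replicate 4 and 0.84 without replicate 1. With the array floor as a covariate the Ag+ value was 1.63 and the L-PVP-NW value 1.20, but those of S-SiO2-NW (0.48), S-PVP-NW (−0.01) and L-SiO2-NW (0.14), the groups with low floors, were smaller. The floors of these low-floor groups did not overlap those of Control, so the covariate cannot separate floor from exposure there.

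Glutathione transferase had Control intensities of 72, 85, 90 and 348. Control 4 was the brightest of all 24 arrays, and the other Control arrays were dim. L-SiO2-NW gave 57, 61, 58 and 53, the 4 lowest values of the series, and its mean was 57.2 ± 3.3 (SD, n = 4). L-PVP-NW gave 67, 78, 62 and 90, all dim. Ag+ gave 69, 70, 217 and 162, S-PVP-NW gave 70, 106, 100 and 121, and S-SiO2-NW gave 133, 145, 278 and 72. The arrays of these last 3 groups lay on both sides of the dim limit and across the Control range.

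The normalised difference of glutathione transferase from Control was −1.01 ± 0.39 in L-SiO2-NW (SE, n = 4 per group) and −0.58 without Control 4. All 16 pairs were lower in L-SiO2-NW, as they were for 4.02% of all features. Since every L-SiO2-NW array was dim, the level there has only an upper bound, and no fold is given because 3 of the 4 Control arrays were dim too. The values were −0.68 in L-PVP-NW, −0.35 in S-PVP-NW, −0.19 in Ag+ and 0.01 in S-SiO2-NW. Without Control 4 these were −0.25, 0.08, 0.24 and 0.44, so the direction in Ag+ and S-PVP-NW depended on that array. The offset of 50 used in the background step pulls differences of dim features toward 0. With the array floor as a covariate the L-SiO2-NW value was −1.93 and that of S-PVP-NW −1.19. The floors of both groups did not overlap those of Control, so the covariate cannot separate floor from exposure there.

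**Figure D2:**
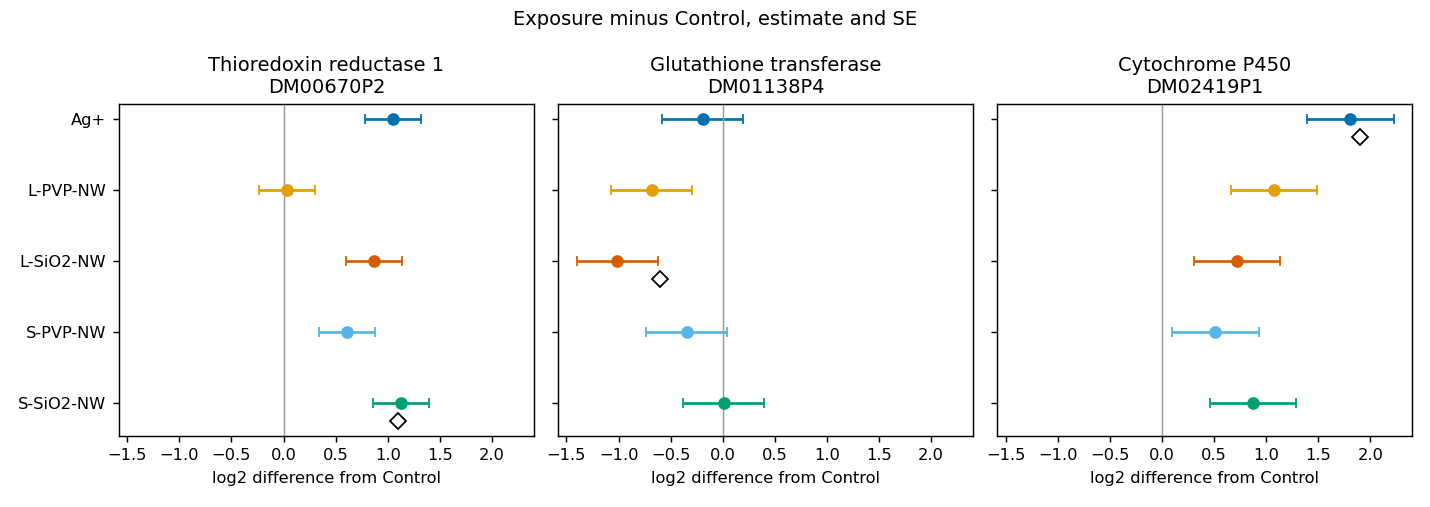
Normalised log2 difference of each exposure from Control for the 3 features, from the limma fit over 24 arrays. Points are estimates (n = 4 arrays per group), bars are 1 SE, and open diamonds are the ratios in the authors' deposited table, which lists 1 exposure per feature. Diamonds and points are close for thioredoxin reductase in S-SiO2-NW (1.1 and 1.13) and cytochrome P450 in Ag+ (1.9 and 1.81) and farther apart for glutathione transferase in L-SiO2-NW (−0.6 and −1.01).

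Thioredoxin reductase had all exposed arrays above all Control arrays in 3 exposures on the normalised scale, as did 11.3% of features in Ag+, 4.87% in L-SiO2-NW and 6.5% in S-SiO2-NW. As the features were chosen on these contrasts, nothing is read from the counts.

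Ordered by normalised mean, thioredoxin reductase ran from S-SiO2-NW (10.2) through Ag+ (10.1), L-SiO2-NW (9.96), S-PVP-NW (9.70) and L-PVP-NW (9.12) to Control (9.09). Cytochrome P450 ran from Ag+ (10.99) through L-PVP-NW (10.3), S-SiO2-NW (10.1), L-SiO2-NW (9.90) and then S-PVP-NW (9.69) to Control (9.18). L-PVP-NW was thus second for cytochrome P450 and next to last for thioredoxin reductase. Glutathione transferase ran from S-SiO2-NW (7.08) and Control (7.07) through Ag+ (6.88), S-PVP-NW (6.72) and L-PVP-NW (6.39) to L-SiO2-NW (6.06). The ranges of all neighbouring groups overlapped for each feature. Only 2 neighbouring steps exceeded the pooled SD of replicates, that from S-PVP-NW to L-PVP-NW for thioredoxin reductase (0.57 against 0.39) and that from Ag+ to L-PVP-NW for cytochrome P450 (0.74 against 0.61).

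Differences between exposures address whether the form of silver, the nanowire length or its coating goes with another level. Of the 27 such differences of the 3 features, 12 include the exposure under which the authors' deposited table lists the feature, and these are given as a description without a test. The other 15 were tested in the fit across all 14338 features at a Benjamini-Hochberg adjusted p of 0.05. The features were chosen with earlier results of these arrays known, and these differences had been computed before. The adjusted p-values are therefore not independent of that choice, and a pass is read as a description of these arrays only. Only 1 difference passed. It was thioredoxin reductase, lower in L-PVP-NW than in Ag+ by 1.02 ± 0.27 (SE, n = 4 per group; limma, adjusted p = 0.0153), with all 4 L-PVP-NW arrays (8.93 to 9.44) under all 4 Ag+ arrays (9.83 to 10.46). In that contrast 8.57% of all features were called lower. The difference missed the threshold without Ag+ 3 (limma, adjusted p = 0.0591), Ag+ 4 (0.0545) or L-PVP-NW A (0.0503) and when the array floor was a covariate (0.168). Against Ag+, S-PVP-NW had −0.44 (limma, adjusted p = 0.337) and L-SiO2-NW had −0.18 (0.786), with 95% intervals of −1.003 to 0.12 and −0.74 to 0.38. Without a test, S-SiO2-NW had 0.07, with an interval of −0.49 to 0.63.

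Cytochrome P450 had a lower mean in each of the 4 nanowire groups than in Ag+, the exposure for which it is listed. The differences, given without a test, were −1.30 ± 0.41 in S-PVP-NW (SE, n = 4 per group), −1.09 in L-SiO2-NW, −0.94 in S-SiO2-NW and −0.74 in L-PVP-NW, each with the same SE. The S-PVP-NW and Ag+ ranges overlapped. Glutathione transferase was tested against Ag+ in 3 groups and none passed, with −0.49 in L-PVP-NW (limma, adjusted p = 0.454), 0.21 in S-SiO2-NW (0.884) and −0.15 for S-PVP-NW (0.88). Its intervals reached from −1.30 to 0.32, from −0.61 to 1.02 and from −0.97 to 0.66.

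**Figure D3:**
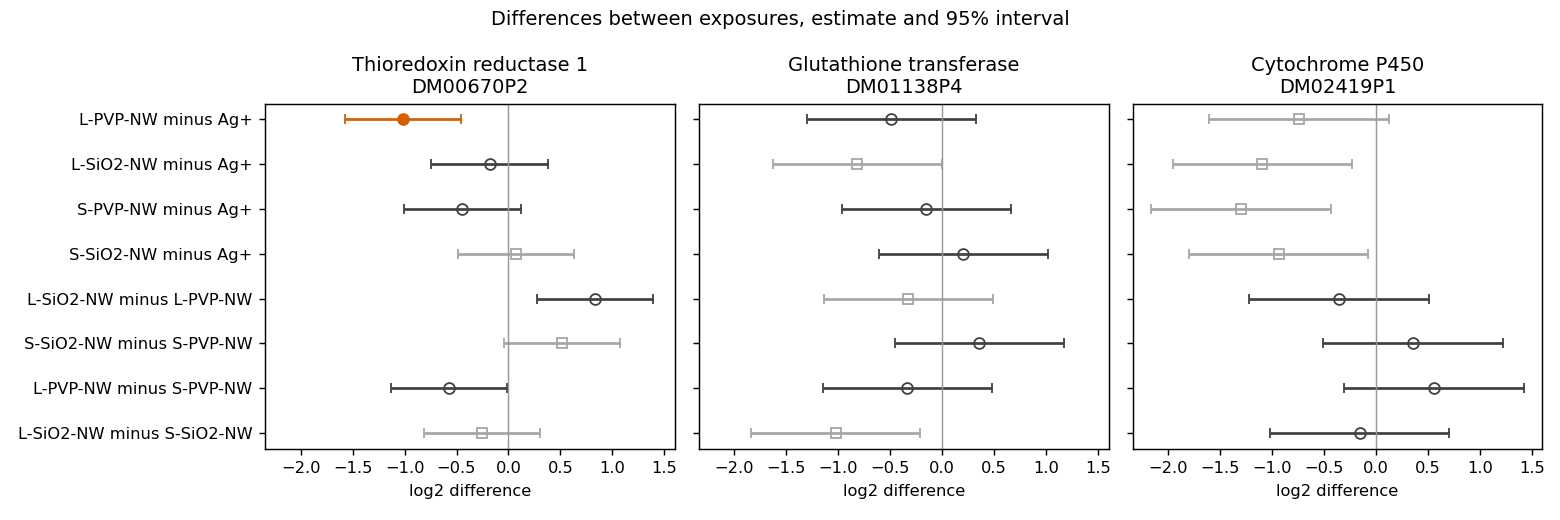
Normalised log2 differences between exposures for the 3 features, from the same fit. Symbols are estimates (n = 4 arrays per group) and bars are 95% intervals not adjusted for the number of features. Circles were tested, grey squares include the exposure under which the feature is listed and are a description, and the filled orange circle, thioredoxin reductase in L-PVP-NW against Ag+ (−1.02), has an adjusted p under 0.05 over all features.

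None of the tested coating differences passed. On long nanowires thioredoxin reductase was 0.84 ± 0.27 with silica against PVP (SE, n = 4 per group; limma, adjusted p = 0.0755), and 2.69% of features were called higher in that contrast. All 4 silica arrays were above all 4 PVP arrays on the normalised scale only, since the intensities of L-SiO2-NW 2 and 3 (702 and 699) lay below that of L-PVP-NW C (858). The difference passed with a common 75th percentile (limma, adjusted p = 0.031) and with array weights (0.0361). Over the alternative settings the features called in either direction in that contrast ranged from 0 to 5733, against 686 in the main fit. With the common 75th percentile the median of all features against Control was −0.39 in L-SiO2-NW and 0.03 in L-PVP-NW. Nothing is read from these passes. On short nanowires it was 0.51 ± 0.27, given without a test. For cytochrome P450 the coating differences were −0.36 on long and 0.36 on short nanowires (limma, adjusted p = 0.702 and 0.799), with intervals of −1.22 to 0.51 and −0.50 to 1.22. The coating effects at the 2 lengths differed for this feature by −0.72 ± 0.59 (limma, adjusted p = 0.865). For glutathione transferase the coating difference on short nanowires was 0.36 (limma, adjusted p = 0.783), and on long nanowires it was −0.33, without a test.

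None of the tested length differences passed either. With PVP, L-PVP-NW against S-PVP-NW had −0.57 for thioredoxin reductase (limma, adjusted p = 0.296), 0.56 for cytochrome P450 (0.583) and −0.34 for glutathione transferase (0.777). With silica, cytochrome P450 had −0.16 in L-SiO2-NW against S-SiO2-NW (limma, adjusted p = 0.999), with an interval of −1.02 to 0.71. Without a test, the silica length difference was −0.25 ± 0.27 for thioredoxin reductase and −1.02 ± 0.39 for glutathione transferase (SE, n = 4 per group), whose 4 long-nanowire arrays lay under all 4 short-nanowire arrays and were all dim. In the contrasts where none of the tested features passed, the shares of all features called were 11.5% for S-PVP-NW, 7.55% for L-SiO2-NW and 2.63% for S-SiO2-NW against Ag+, 0.9% for coating on short nanowires, 2.15% for length with PVP, 0.0349% for length with silica and 0.0209% for the difference of the coating effects.

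The 3 features did not vary together. Over the 24 arrays Pearson's r of normalised values was 0.00 between thioredoxin reductase and glutathione transferase, 0.28 between thioredoxin reductase and cytochrome P450 and 0.02 between glutathione transferase and cytochrome P450. After subtracting group means these were −0.06, −0.06 and 0.11. These are descriptions over arrays that share groups and normalization.

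Thioredoxin reductase had close companions among the 492 other features with a description and a match of E 0.001 or less. The 5 most like it were MAD homolog 5 (DM00271P2, r = 0.95), a transducer of BMP-type signals, a mosquito-named protein AGAP006096-PA (DM02529P2, 0.95), DNA replication licensing factor MCM7 (DM00884P2, 0.94), part of the replicative helicase, a putative serine proteinase (DM01929P2, 0.92) and frizzled homolog 7b (DM00382P2, 0.89), a receptor for Wnt proteins. The median r over the 492 was −0.17. Within groups r was 0.79 to 0.92 for these 5. Of the 24 arrays, MCM7 was dim on 23, the proteinase on 21, frizzled homolog on 15, MAD homolog 5 on 8 and AGAP006096-PA on 3. MCM7 had 57 ± 7.16 in Control and 83.8 ± 31.1 in S-SiO2-NW (SD, n = 4), and MAD homolog 5 had 88.5 ± 21 in Control and 208 ± 80.8 in Ag+.

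Glutathione transferase was most like an angiotensin-converting enzyme 2 precursor-type peptidase (DM02952P1, r = 0.92), a trypsin (DM01617P3, 0.89), which digests protein in the gut, a hypothetical protein (DM05816P4, 0.88), a protein similar to the fly CG1469-PA (DM02301P3, 0.87) and AGAP009966-PA (DM06084P1, 0.87). The trypsin DM01617P3 and DM02301P3 were dim on 24 of 24 arrays, DM05816P4 on 10, AGAP009966-PA on 4 and the peptidase on 0, so the likeness of the first pair is between signals near the background. The peptidase had 580, 756, 930 and 4700 on the Control arrays and 1573, 1932, 5742 and 949 on the S-SiO2-NW arrays, so Control 4 and S-SiO2-NW 3 were high for it as they were for glutathione transferase. The abundant gut trypsin DM01846P3 also had its highest value of the series on Control 4 (14158), and its L-SiO2-NW arrays (120 to 1397) were the 4 lowest of the series. Its r with glutathione transferase was 0.76 over arrays and 0.71 within groups. The trypsin difference from Control was −3.48 ± 0.82 in L-SiO2-NW (SE, n = 4 per group). The part of gut content or gut tissue in the glutathione transferase values was not tested.

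Cytochrome P450 was most like the fly-named CG14959-PA (DM02776P1, r = 0.81), helmsman (DM00005P1, 0.77), a chitin-binding protein with LDLa domains (DM00251P1, 0.73), purine nucleoside phosphorylase (DM02497P3, 0.66), which salvages purines, and a predicted protein (DM00743P1, 0.66). Within groups r fell to between 0.33 and 0.59 for these, so much of the likeness lay between groups.

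**Figure D4:**
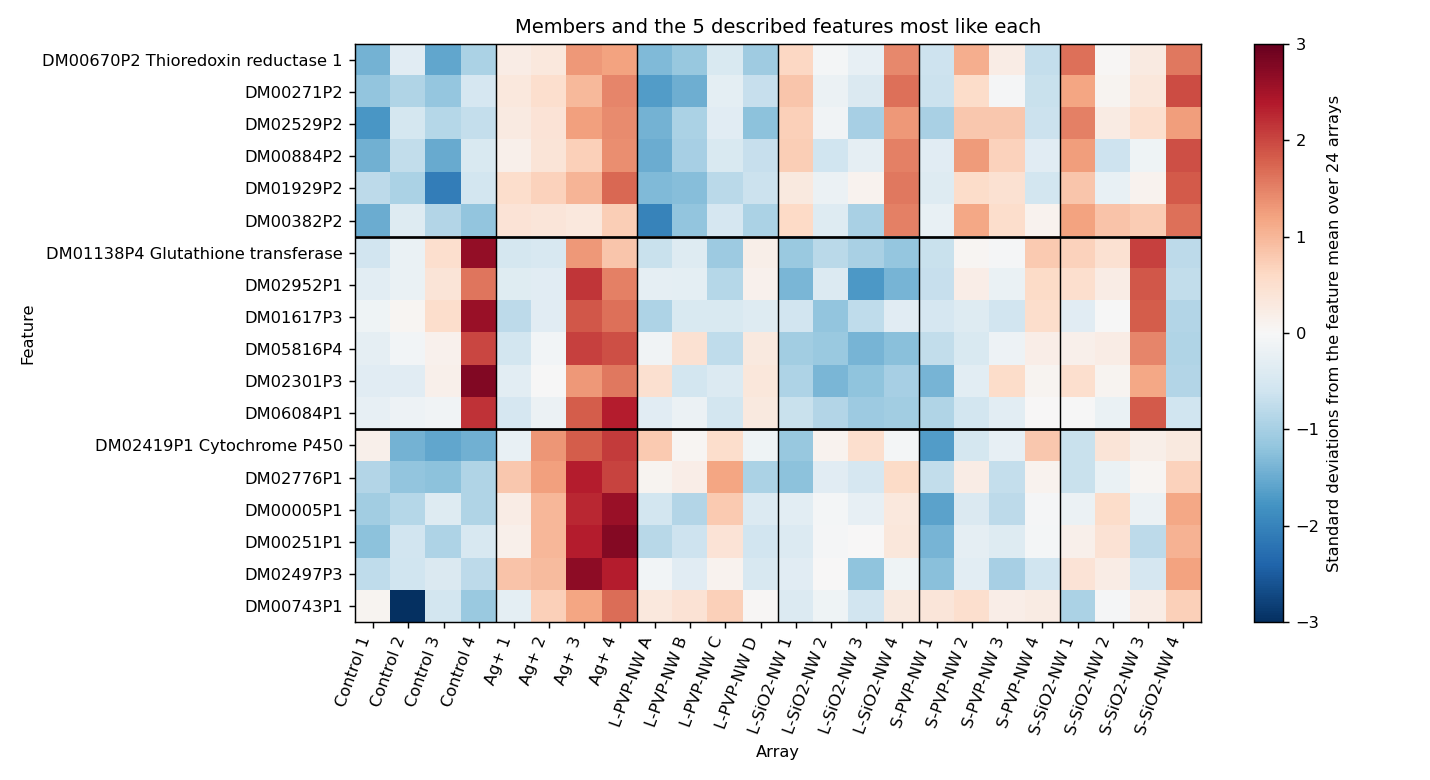
Normalised log2 values of the 3 features and of the 5 described features most like each, shown as standard deviations from the feature's mean over the 24 arrays. Columns are arrays by group, and thick lines separate the blocks. In the middle block Control 4, Ag+ 3 and 4 and S-SiO2-NW 3 are high together and the L-SiO2-NW arrays are low.

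Markers of tissues differed between groups too. Muscle myosin heavy chain DM00704P3 had intensities of 358 to 439 in Control and 66 to 79 in Ag+, where all 4 arrays were dim, so it was at least 4.74-fold lower there on the normalised scale. In the other exposures it differed from Control by −1.73 ± 0.27 in S-SiO2-NW (SE, n = 4 per group), −1.002 in L-SiO2-NW, −0.98 in L-PVP-NW and −0.96 in S-PVP-NW. Its r with thioredoxin reductase was −0.72 over arrays and −0.66 within groups. The vitellogenin DM02775P1, a yolk precursor, had 17536 to 53310 in Control and 55 to 184 in Ag+, where 3 arrays were dim. Its differences elsewhere were −5.00 in S-SiO2-NW, −0.85 in S-PVP-NW, −1.62 in L-SiO2-NW and −1.69 in L-PVP-NW. Eye opsin DM02717P2 differed by 2.13 in Ag+, 0.79 in S-SiO2-NW, 0.77 in L-SiO2-NW, 0.24 in L-PVP-NW and 0.12 in S-PVP-NW. Hemoglobin 4 DM01998P1 differed by 0.61 in Ag+, −0.25 in S-SiO2-NW, −0.38 in L-PVP-NW, 0.04 in S-PVP-NW and −2.40 in L-SiO2-NW, and its r with glutathione transferase was 0.52. All 5 markers, trypsin included, were above the dim limit on all Control arrays but 1 of the opsin. Over arrays and within groups, opsin had r of 0.67 and 0.61 with thioredoxin reductase and 0.58 and 0.26 with cytochrome P450. Vitellogenin had −0.60 and −0.33 with thioredoxin reductase and −0.66 and −0.29 with cytochrome P450. Muscle myosin had −0.55 and 0.27 with cytochrome P450. For trypsin and hemoglobin 4, r over arrays was −0.19 and −0.23 with thioredoxin reductase and 0.14 and 0.02 with cytochrome P450. The part of tissue make-up in the enzyme values was not tested.

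Few other features of the same pathways could be named outside the vitellogenins. Of 17 features whose description matched redox words, 9 were vitellogenin features and were set aside. Of the described features, 14 outside the vitellogenins matched words for redox or biotransformation proteins, 10 of these had a match of E 0.001 or less, and 7 of those are not among the 3 enzymes. They are a second glutathione S-transferase-like protein, 2 ferritins, which store iron, a haem peroxidase, a carboxylesterase domain protein, an epoxide hydrolase, which opens reactive epoxides, and a succinate-semialdehyde dehydrogenase, an enzyme of GABA breakdown that entered by the word match on aldehyde dehydrogenase. The authors selected these features on the same arrays, so their differences from Control are a description and nothing is read from the counts. In Ag+ the fit called 2 of the 7 higher and 0 lower, against 10.3% and 7.53% of all features, and the list median was 0.33 against 0.01 for all features. In S-PVP-NW it called 1 lower and 0 higher (median −0.38 against 0.01), where 1.07% of all features were called lower. It called none of the 7 in L-PVP-NW, L-SiO2-NW or S-SiO2-NW, where 0.0279%, 0.962% and 4.74% of all features were called, and the medians were 0.13, −0.05 and −0.23 against −0.00, −0.00 and 0.01. Of the 24 arrays, ferritin 1-like A and the carboxylesterase were dim on 23 and the second transferase on 17. The list median was the value of ferritin 1-like A in S-PVP-NW and of the carboxylesterase in L-PVP-NW and L-SiO2-NW. In S-SiO2-NW it was the value of the second transferase, so these medians rest on mostly dim features.

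The 2 features called in Ag+ were succinate-semialdehyde dehydrogenase DM05925P4, at 1.61 ± 0.40 (SE, n = 4 per group), and epoxide hydrolase DM01452P3, at 0.98 ± 0.33. Both had a low Control 3. Epoxide hydrolase had intensities of 743, 840, 181 and 1440 in Control, and succinate-semialdehyde dehydrogenase had 179, 343, 62 and 515. Without Control 3 their Ag+ differences were 0.48 for epoxide hydrolase and 1.03 for succinate-semialdehyde dehydrogenase. Epoxide hydrolase had a mean above Control in every exposure, by 0.52 to 1.07, but without Control 3 by 0.57 in S-PVP-NW, 0.18 in L-PVP-NW, 0.13 in S-SiO2-NW and 0.01 in L-SiO2-NW. Haem peroxidase DM01544P2 had 64, 180, 257 and 115 in S-PVP-NW and 749, 545, 497 and 250 in Control, a normalised difference of −2.17 ± 0.43, and the intensity ranges met only at S-PVP-NW 3 and Control 4. The second transferase, DM05883P1, had −0.85 ± 0.32 in L-SiO2-NW, where all 4 arrays were dim. Its intensities there, 78, 58, 66 and 64, overlapped the Control values of 149, 93, 66 and 177, and the groups were apart on the normalised scale only. Ferritin 1-like A was dim on every array of Control and of L-SiO2-NW, so no difference is given.

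**Figure D5:**
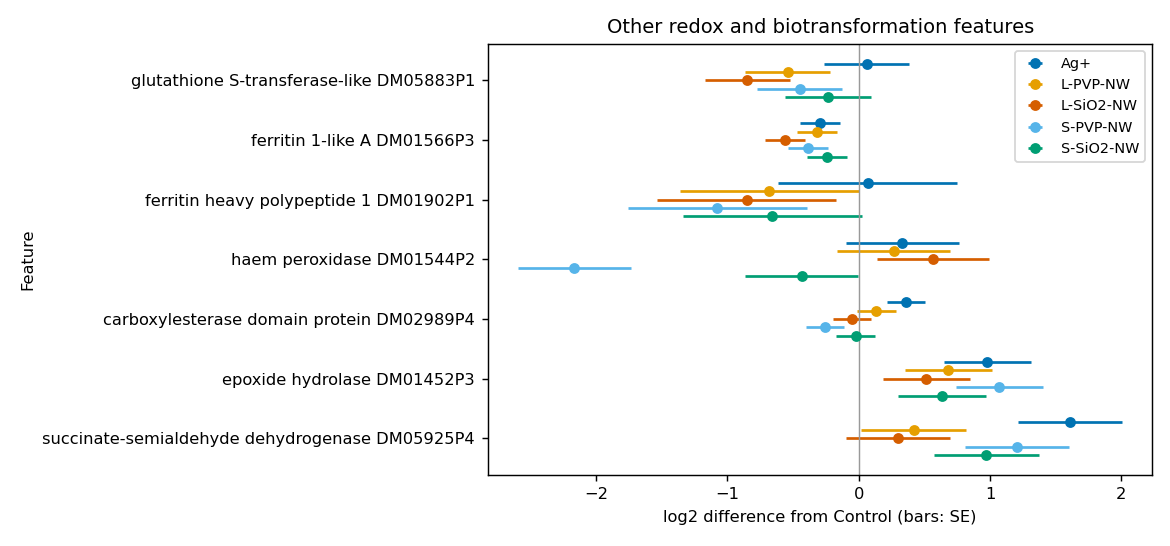
Normalised log2 difference from Control for the 7 other redox and biotransformation features in each exposure. Points are estimates (n = 4 arrays per group) and bars are 1 SE. Points far from 0 are haem peroxidase in S-PVP-NW (−2.17) and succinate-semialdehyde dehydrogenase in Ag+ (1.61). The points of the 2 ferritins lie below 0 except that of ferritin heavy polypeptide 1 in Ag+ (0.07), but ferritin 1-like A was dim on 23 of 24 arrays. Without Control 4 ferritin heavy polypeptide 1 had 0.85 in Ag+, 0.10 in L-PVP-NW, 0.12 in S-SiO2-NW, −0.08 in L-SiO2-NW and −0.30 in S-PVP-NW.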

How the data were processed

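Per the labels, RNA came from whole animals by Trizol, with 300 ng going into Cy3 labelling by the one-colour Agilent Quick-Amp kit. The deposited intensity values are whole numbers up to 65535, with no scaling between arrays seen. The sources used here give no scanner settings. The log2 ratios and the E values (search expectation values, used as other numbers) in the authors' deposited table come with no stated test, tool or threshold.

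Exact zeros (310 features on Ag+ 2, none of the 3 enzymes) were missing. Intensities were corrected with normexp (offset 50), log2-transformed and quantile-normalised. limma 3.58.1 in R 4.3.3 fitted 1 mean per group over 24 arrays, with eBayes (prior df 1.59), two-sided, and p-values were adjusted by Benjamini-Hochberg across the 14338 features (threshold 0.05). The design planned a test of all 27 differences between exposures, and those with the exposure under which a feature is listed are given without one. The fit was tested on simulated data. The number of arrays limits the precision. Named features were the 3 enzymes, list features of E 0.001 or less and the 5 described features with the highest r; members and lists were chosen with earlier results of these data known. Alternatives covered background, scaling, offset, filter, arrays fitted, weights, prior, floor, block and each array left out.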

Additional observations from a re-analysis of the deposited data

Results flagged for a closer look

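In 3 cases 1 array of a group of 4 stood so far from the others that Dixon's 95% limit was passed, which chance alone does for about 1 group in 20. With 3 features in 6 groups, on the intensity and the normalised scale, some such cases can be expected by chance. None is therefore taken as a fault of its array. Glutathione transferase DM01138P4 had an intensity of 348 on Control 4, where the other Control arrays had 72 to 90. Cytochrome P450 DM02419P1 had a normalised log2 value of 10.14 on Control 1, against 8.79 to 8.91 on the others. Thioredoxin reductase DM00670P2 had an intensity of 858 on L-PVP-NW C, against 309 to 368, and its normalised value there (9.44) did not pass the limit. Without that array thioredoxin reductase in L-PVP-NW was −0.07 against Control, where all arrays gave 0.04, and −1.12 against Ag+, where all arrays gave −1.02. The values without Control 1 and Control 4 are given with the results.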

How the results depend on the processing

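In the counts below a difference is called where the planned test passed, also for the differences that the report gives as a description. Of 765 recomputed values of the 3 enzymes, 732 kept their direction and side of the threshold, or moved by less than the replicate spread. Of the rest, 11 were reversed, 13 were weaker, 4 were stronger and 5 had moved. The filter, the prior, the replicate block and the fit of only the arrays compared leave an estimate as it is. The 732 is therefore no measure of how stable the estimates are. With median centring thioredoxin reductase differed from Control by 1.63 in Ag+ and 1.72 in S-SiO2-NW. With a common 75th percentile the median of all features against Control moved to −0.28 for Ag+, 0.03 for L-PVP-NW, −0.39 for L-SiO2-NW, −0.26 for S-PVP-NW and −0.47 for S-SiO2-NW. In that setting thioredoxin reductase was 0.94 for L-SiO2-NW minus L-PVP-NW, now called, and −0.0248 for S-SiO2-NW minus Ag+. With array weights these were 0.88, called, and −0.0327, and cytochrome P450 in L-SiO2-NW minus Ag+ was −1.30, called. With the array floor as covariate thioredoxin reductase in L-PVP-NW minus Ag+ was −1.04 and cytochrome P450 in S-PVP-NW minus Ag+ −1.65, both no longer called. In that setting glutathione transferase was −1.93 in L-SiO2-NW, −0.61 in S-SiO2-NW and −1.19 in S-PVP-NW against Control, −0.14 for S-SiO2-NW minus Ag+ and 0.70 for L-PVP-NW minus S-PVP-NW. When only the arrays compared were fitted, cytochrome P450 in S-PVP-NW minus Ag+ kept −1.30 without a call. The cause of these changes was not tested.

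With the replicate block, from the 20 numbered arrays, the same difference was −1.30, without a call. Replicate numbers did not pair the samples: r of deviations from group means was −0.46 to 0.44 over 40 same-number pairs and −0.58 to 0.57 over 120 others.

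With 1 array left out, thioredoxin reductase ranged from −1.12 to −0.91 for L-PVP-NW minus Ag+ and from −0.0769 to 0.23 for S-SiO2-NW minus Ag+. Glutathione transferase ranged from −0.32 to 0.0647 for S-PVP-NW minus Ag+ and from −0.10 to 0.50 for S-SiO2-NW minus Ag+. Cytochrome P450 ranged from −1.47 to −0.84 for L-SiO2-NW minus Ag+, from −1.68 to −0.97 for S-PVP-NW minus Ag+ and from −0.34 to 0.10 for L-SiO2-NW minus S-SiO2-NW.

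Calls of the 3 enzymes between exposures numbered 2, but 1 with only the arrays compared, 4 with array weights, 0 with the floor covariate and 0 to 3 with 1 array left out. Calls of the 7 other features against Control numbered 3, but 7 with the common 75th percentile, 0 with only the arrays compared, 1 with the floor covariate and 1 to 4 with 1 array left out. Over all features, calls against Control ranged from 1410 to 2670 in Ag+ (2557 in the main fit) and 0 to 7626 in S-SiO2-NW (679). In L-SiO2-NW they ranged from 0 to 327 (138), in S-PVP-NW from 1 to 230 (194) and in L-PVP-NW from 0 to 24 (4). Nothing is read from the counts of calls. Of the 5 companions of thioredoxin reductase, 3 were shared with the ranking within groups. For glutathione transferase 2 were shared by Spearman's rho and 3 without Control 4, an alternative chosen after seeing the data, and for cytochrome P450 1 was shared within groups and 3 without Control 4. Glutathione transferase was dim on 16 of 24 arrays.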
